A study of Danio rerio with 34 samples.

Results

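Elavl1a crosslink sites that were called at the same nucleotide in both sphere and shield embryos are described here. They were chosen from the peak lists of an individual-nucleotide resolution crosslinking and immunoprecipitation assay (iCLIP), as the peaks of the sphere list that overlapped a shield peak by at least 1 nt on the same strand. This rule found 14065 peaks among the 119122 of the sphere list (11.8%) and, since each met exactly 1 partner, 14065 among the 308540 of the shield list (4.56%). Wild-type zebrafish embryos of strain AB had been injected at the one-cell stage with mRNA for Flag-tagged Elavl1a, so the tagged protein came on top of the embryos' own Elavl1a. Whole embryos were irradiated with ultraviolet light at sphere (4 h.p.f.) or shield (6 h.p.f.), and RNA crosslinked to the protein was recovered with anti-FLAG beads. Each stage had 2 replicates, but the authors merged them before peak calling and both deposited lists of a stage were identical. Every value therefore stands for 1 list per stage, with no spread between replicates and no test between stages. No library without the Flag tag was analysed here. The lists name positions and not genes, and genes, sequence and cell type markers were not analysed here.

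Elavl1, known as HuR in mammals, is an RNA-binding protein with RNA recognition motifs that prefers U-rich and AU-rich stretches, often in 3′ UTRs, and is best known for protecting the bound mRNA from decay. In the early zebrafish embryo, maternal mRNAs are cleared while zygotic transcription starts, and both processes are under way between sphere and shield. In iCLIP the reverse transcriptase tends to stop next to the crosslinked nucleotide, so a pile of read ends at 1 nucleotide marks a site of contact. The peak height used below is the whole number that the peak caller wrote for such a pile. It was not scaled between stages.

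Shared sites were taller on the whole than the other peaks of each list. Their median height was 9 at sphere and 13 at shield, against 4 for peaks found only at sphere and 4 for those found only at shield. Their upper 10% began at 41 and 64, where that of the stage-only peaks began at 8 in either list. The rule asks for a call in both lists and calls rest on height, so these values are a description of what was chosen. Height alone did not mark a shared site. Among peaks of height 10 or more, 6750 were shared and 8039 found only at sphere, and in the shield list 8522 were shared and 18293 found only at shield, while the lowest 25% of the shared sites had a sphere height of 5 or less. Of the sphere peaks with a height of 2, 1.46% were shared. The share was 9.39% at heights of 5 and 6, 35.1% at 10 to 19, 60.2% at 20 to 49 and 86.8% from 100 to under 500. Shield peaks followed the same order at a lower level, with 0.139% at a height of 2, 20.7% at 10 to 19 and 81.8% from 100 to under 500. At 500 or more the shares were 90.0% of 60 sphere peaks and 88.3% of 103 shield peaks.

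**Figure D1:**
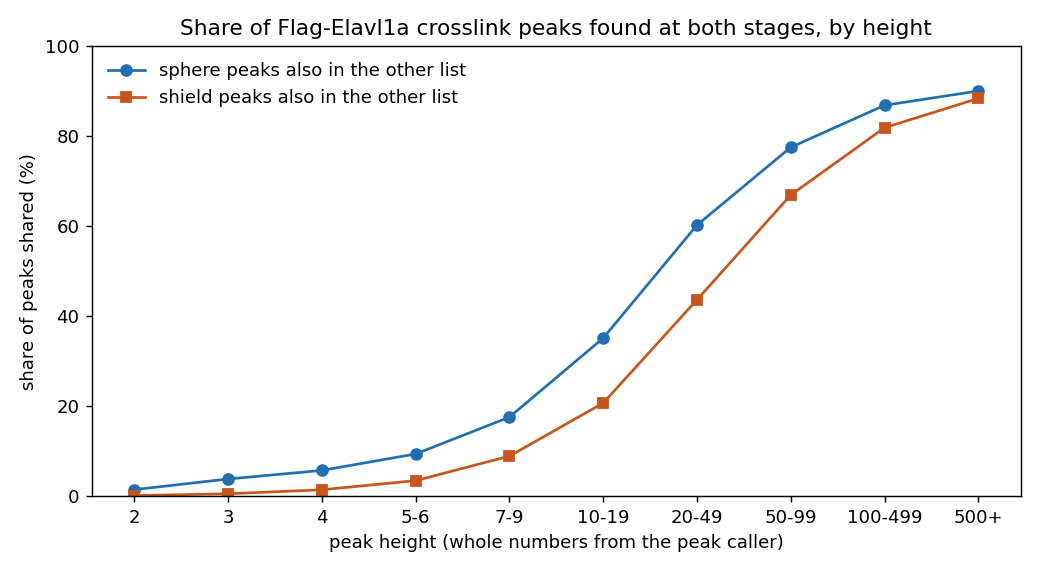
Share of the peaks in each list that were shared (y axis, percent) by peak height (x axis, whole numbers from the peak caller, in classes), with circles for sphere and squares for shield. The share climbs from 1.46% to 90.0% in the sphere list and from 0.139% to 88.3% in the shield list.

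Most sites that were tall at 1 stage and not shared had a neighbour within 25 nt in the other list. Among the 59 sphere peaks of height 100 or more that were not shared, 14 had a shield peak 1 nt away, 31 had one within 25 nt and 7 had none within 1000 nt. Among the 170 such shield peaks the numbers were 41, 120 and 22. Of all 105057 sphere-only peaks of any height, 4531 had a shield peak 1 nt away, 30061 had one within 25 nt and 17097 had none within 1000 nt. A shield peak within 1000 nt was thus common for sphere-only peaks and not particular to the tall ones.

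Where peaks of the 2 lists lay close together, the same nucleotide was the most frequent distance. Of all sphere peaks, 14065 had their nearest shield peak at distance 0, 2462 had it 1 nt upstream and 2069 had it 1 nt downstream. Only 1910 lay 2 nt away in either direction, and all distances from 2 to 25 nt together held 25530. The caller left at least 26 nt between neighbouring peaks of 1 list. Nearly all peaks were 1 nt long and the rule asks for overlap, so peaks 1 nt apart in the 2 lists were mostly not counted as shared. Whether such peaks came from 1 pile whose summit moved was not tested. Of the shared peaks, 14056 overlapped by exactly 1 nt, which is the whole peak where both are 1 nt long. Their median heights were 9 at sphere and 13 at shield. Just outside the rule, the 4531 sphere peaks directly next to a shield peak had 6 and 7. Nearly all shared sites were 1 nt long in both lists (13431), and the others were 2 or 3 nt long in at least 1 of them.

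**Figure D2:**
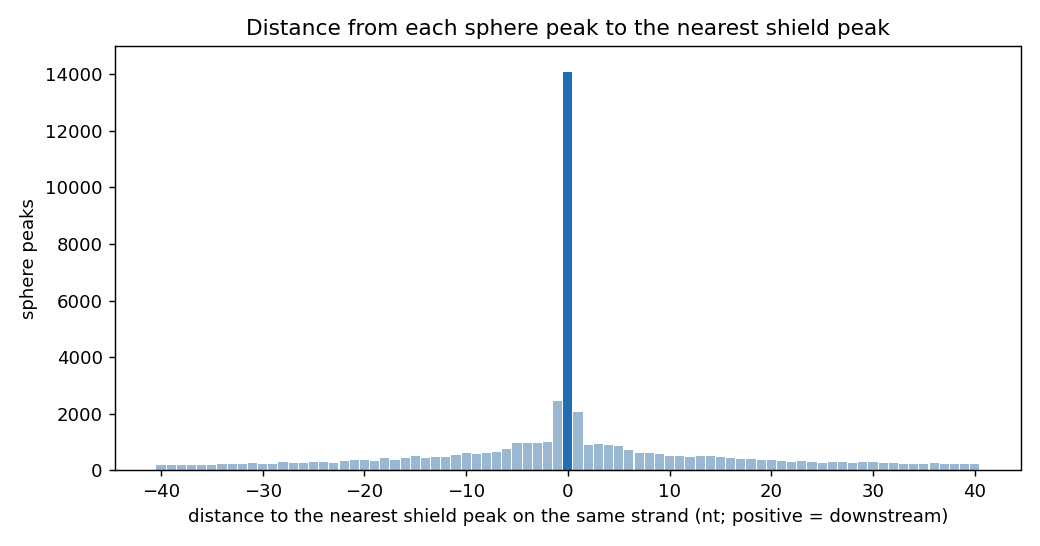
Number of sphere peaks (y axis) by the distance to the nearest shield peak on the same strand (x axis, nt, positive downstream). The dark bar holds the 14065 shared peaks, and the bars at 1 nt upstream and downstream hold 2462 and 2069.

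The caller's own p, which follows height and had to pass in both lists for a site to be shared, is likewise a description. It was under 0.001 for 77.7% of them at sphere and for 84.1% at shield, and for 68.7% in both lists at once, against 43.0% of the sphere-only and 35.7% of the shield-only peaks. The height expected by the caller in the same stretch of reads was higher for shared sites, with a median of 0.28 at sphere and 0.38 at shield against 0.09 and 0.07 for stage-only peaks. The ratio of found to expected height was therefore lower for shared sites, with medians of 36 and 35 against 50 in both stage-only groups. The expected height may include the reads of the peak itself, and shared sites were the taller ones. It therefore does not show that more reads lay around them, and the depth of the surrounding RNA was not measured here.

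Heights at the 2 stages went together over the shared sites. Pearson's r of the log2 heights was 0.78 and Spearman's rho 0.69 over the 14065 sites, a description across sites that share their libraries. At shield, 9072 sites were higher than at sphere, 1052 were equal and 3941 were lower. The median ratio of shield to sphere height was 1.35, with 10% of the sites below 0.593 and 10% above 3.50. More than 2-fold higher at shield were 3919 sites (27.9%) and more than 2-fold lower 870 (6.19%). This balance cannot be read as a change of binding, since the heights were not scaled between the libraries and the read totals of the study were not used here. The summed height of all peaks was 1.36 times higher at shield, but 2.26 times higher once the locus with the tallest peaks, described below, was left out. Set against the median ratio instead, 17.0% of the sites were more than 2-fold above it and 14.3% more than 2-fold below it. In lists from whole embryos, fewer cells carrying an RNA and less of that RNA per cell cannot be told apart, nor can either from less binding per RNA.

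**Figure D3:**
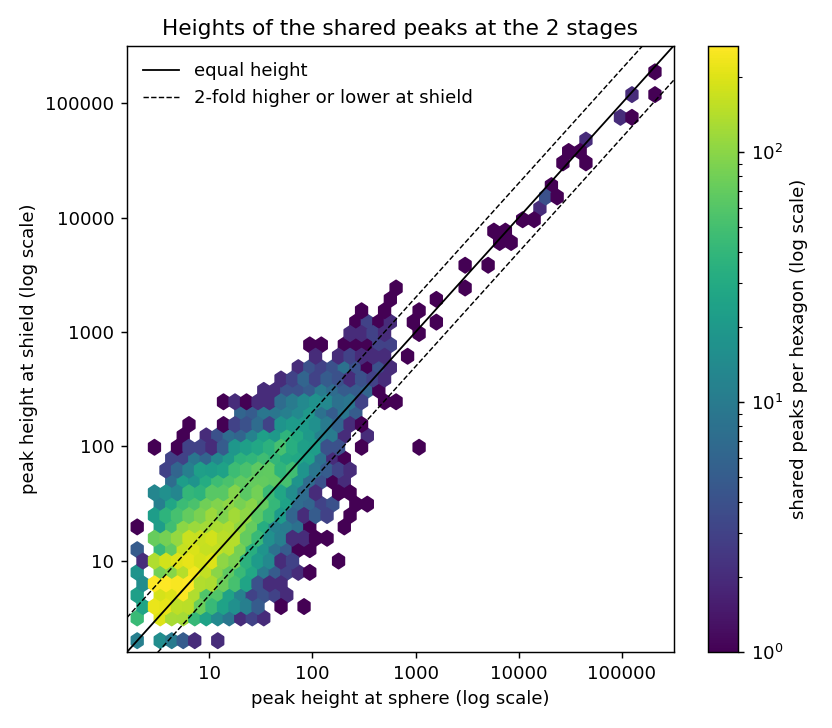
Height at sphere (x axis, log scale) against height at shield (y axis, log scale) of the 14065 shared peaks, with the number of peaks per hexagon as colour. The solid line marks equal heights and the dashed lines a 2-fold difference. Most peaks lie above the solid line, and the tallest ones, from 2760 to 208916 at sphere, lie close to it.

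The spread of the log2 ratio, as a standard deviation, was 0.68 at mean heights under 5, 1.10 at 20 to 50 (2457 sites) and 0.97 at 100 to 500 (443 sites). If every unit of height were 1 independent read, counting would give 1.05, 0.40 and 0.17 in these classes. Separate samples vary beyond counting, and with no replicate lists nothing is read from the excess. In the lowest class the caller's threshold had removed the lowest values. The median ratio was 1.25 in the lowest class, 1.77 at 100 to 500 and 1.08 in the 66 sites of 500 or more, among which are the 30 sites of the locus with the tallest peaks.

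The tallest shared site at each of 10 loci shows the range at the top, where neighbouring shared peaks up to 1000 nt apart on 1 strand were joined into a locus. Coordinates are those of the lists, on the zebrafish genome that the study calls z10. The site at chr4:76321458 on the plus strand stood far above the rest, with a height of 208916 at sphere and 187727 at shield. Next came chr16:15896334 on the minus strand, with 1588 and 1679, a ratio of 1.06 whose 95% exact binomial interval (Clopper-Pearson, counting error only) ran from 0.987 to 1.13. The site chr6:21732602 on the plus strand had 1401 and 1316, a ratio of 0.939 (0.871 to 1.01). Both ratios lie below the median ratio of all shared sites, 1.35, and since the heights were not scaled, a ratio of 1 does not stand for an unchanged site. Among the 66 sites with a mean height of 500 or more, the log2 ratio had a standard deviation of 0.82. Counting alone would give 0.06 there. The intervals therefore cannot show whether a site differs from the median.

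At 3 of the other tall sites the ratio was near the median of 1.35. The site chr13:9524927 on the plus strand had 1132 and 1465, a ratio of 1.29 (1.20 to 1.40), and chr14:47357499 on the minus strand had 971 and 1237, a ratio of 1.27 (1.17 to 1.39). At chr8:45747792 on the minus strand the heights were 571 and 775, a ratio of 1.36 (1.22 to 1.51). On the plus strand chr23:39236049 had 671 and 2270, a ratio of 3.38 (3.10 to 3.69). A similar ratio of 3.16 (2.88 to 3.46) was found at chr11:38274748 on the plus strand, with 616 and 1946. Below the median, chr22:4737671 on the plus strand had 901 at sphere and 594 at shield, a ratio of 0.659 (0.593 to 0.732). The site chr18:43874636 on the minus strand had 1117 and 1002, a ratio of 0.897 (0.823 to 0.978). Ratios at the top of the list thus ran from below to well above the median of 1.35.

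Shared sites lay farther from each other than the peaks of a whole list did. A larger spacing follows from counting only 11.8% of the sphere peaks, so it is no trait of the sites. The nearest sphere peak of any kind was closer to shared sites (median 174 nt) than to sphere-only peaks (279 nt). These groups were not matched for height, and their median sphere heights were 9 and 4, so the difference is not separated from height. Another shared site was within 1000 nt for 43.1% of them, with a median distance of 1824 nt to the nearest, whereas 72.6% of all sphere peaks and 79.9% of all shield peaks had another peak of their list that near, with medians of 263 and 270 nt. Joined at gaps of up to 1000 nt, they formed 10031 loci, of which 7997 (79.7%) held 1 site. The other 2034 loci held 6068 sites, 242 loci had 5 or more and 27 had 10 or more. In the 242 loci of at least 5, 1669 of the 2864 sphere peaks between the first and the last shared site were shared (58.3%), and 56.7% of the 2944 shield peaks. These loci were picked for holding at least 5 shared sites, and each begins and ends with one. High shares follow from that choice and are no trait of the loci. In the stretches of overlapping reads in which the caller looked for peaks, the share rose with the number of peaks. Sphere peaks that were alone in their stretch were shared in 9.06% of 78615 cases, those in stretches with 3 peaks in 14.9%, and those in stretches with 11 to 20 peaks in 35.8%. Heights were not matched between these classes either. Pooled over all stretches of 2 or more peaks, 18.6% of the tallest sphere peaks, with ties all counted as tallest, and 16.0% of the others were shared. In the shield list these shares were 8.45% and 8.91%. The others lay more often in stretches with many peaks, where shares were higher. The pooled shares therefore do not compare the peaks within a stretch.

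The locus with most shared sites lay on the plus strand at chr4:76320028-76325150, and it held much of the summed peak height of both lists. It held 30 shared sites among 34 sphere and 33 shield peaks. Their heights ran from 2760 to 208916 at sphere, with a median of 21073, and from 2599 to 187727 at shield, with a median of 16729. No shared site elsewhere had more than 1588 in the lower of its stages. These 30 sites carried 83.5% of the summed height of all shared sites at sphere and 73.3% at shield, and the locus held 63.6% and 39.5% of the summed height of the whole lists. It was lower at shield at 26 of its 30 sites, and the ratios stayed between 0.658 and 1.35 with a median of 0.893. Without it, shared sites made up 33.8% of the summed height of the sphere list in place of 74.6%, and 23.4% of the shield list in place of 53.0%. The lists do not name the RNA.

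On the opposite strand of the same stretch, chr4:76321294-76325298 held 23 shared sites among 27 peaks in either list. Their heights were at most 407 at sphere and 360 at shield, far below those facing them. The median ratio of 0.872 was close to that of the plus strand, and 17 of the 23 sites were lower at shield. Across the genome, 65 pairs of loci faced each other on opposite strands, and the tallest sphere peak of the higher strand was a median of 2.89 times that of the lower one. These pairs included the loci of the tall sites chr6:21732602, chr11:38274748, chr13:9524927, chr14:47357499, chr18:43874636 and chr23:39236049, besides chr4:76321458. The loci of chr8:45747792, chr16:15896334 and chr22:4737671 were in none of these pairs. At 14 places a shared site on the plus strand and one on the minus strand lay within 10 nt. One of them was the tall site chr23:39236049, which faced a minus-strand site 4 nt away with heights of 184 and 477. Others were the plus-strand sites chr4:76322839 and chr4:76322967, with 17183 and 47315 at sphere, where the minus-strand sites had 42 and 55. At chr5:55049890 both strands had a site at the same nucleotide, with 57 and 105 on the plus strand and 81 and 75 on the minus strand. The source of such pairs was not tested. On all chromosomes, 29 sphere peaks overlapped a shield peak of the other strand.

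**Figure D4:**
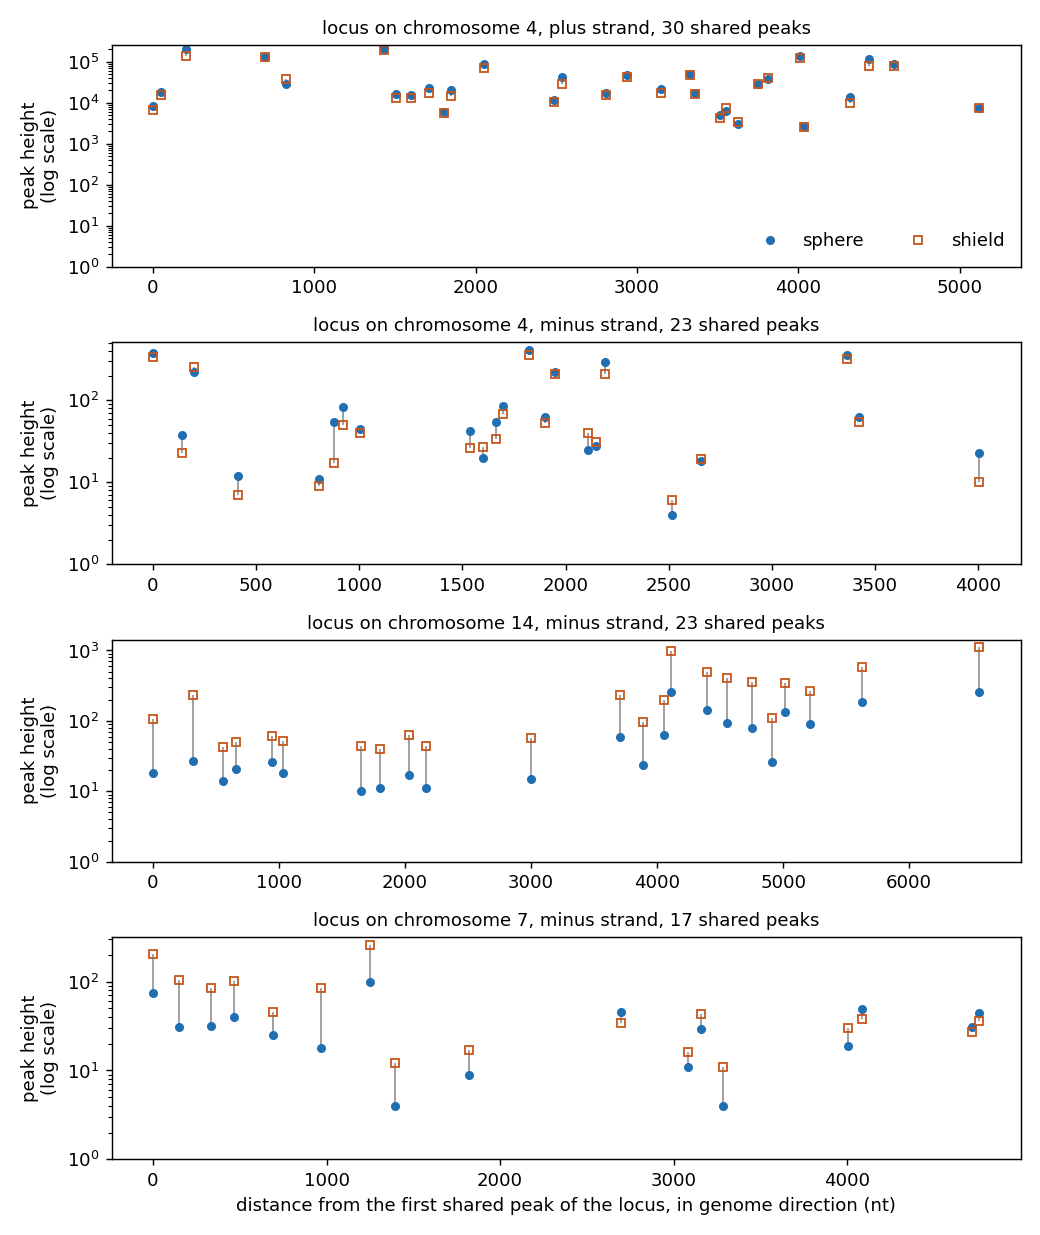
Heights (y axis, log scale) of every shared site at the 4 loci with most shared sites, by distance from the first site (x axis, nt, in genome direction), with filled circles for sphere, open squares for shield and a grey line joining both heights of a site. On chromosome 14 all 23 squares lie above their circles, and on the plus strand of chromosome 4 most lie slightly below.

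At 3 of the other loci with most shared sites, the ratio was above the median of 1.35 at every site. At chr14:46644834-46651389 on the minus strand, all 23 shared sites were higher at shield, by 2.38 to 8.70 times with a median of 3.80. All 23 were above 2-fold, where 27.9% of all shared sites were. That share was higher among taller sites, with 36.9% at mean heights of 20 to 50, 35.7% at 50 to 100 and 42.4% at 100 to 500. Their summed height went from 1598 to 5987, and the tallest sites had 258 and 982, and 253 and 1124. The locus held 58 sphere peaks in all, of which 39.7% were shared. At chr16:33148000-33151627 on the minus strand, all 14 sites were higher at shield, by 1.5 to 4.05 times, and 11 of them by more than 2-fold. Its tallest site went from 411 to 918. At chr23:39234377-39236950 on the plus strand, all 13 sites were higher at shield, by 1.65 to 5.41 times, and 12 of them by more than 2-fold. This locus contains the site with 671 and 2270, which alone made up most of its summed heights of 1151 and 3534.

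Other loci held sites with ratios on both sides of that median. At chr7:26239613-26244373 on the minus strand, 13 of 17 sites were higher at shield and 4 were lower. The tallest site went from 99 to 258 and the first in genome direction from 74 to 207, whereas the 4 lower sites all lay at least 2698 nt from the first, among them 1 with 46 and 34 and 1 with 44 and 36. At chr2:58660001-58662180 on the plus strand, 12 of 16 sites were more than 2-fold higher, with the tallest at shield going from 74 to 362, while 2 neighbouring sites had 63 and 59, and 52 and 49. At chr8:16573717-16577392 on the minus strand, the tallest of 14 sites went from 178 to 279 and the median ratio was 1.66, but the site at chr8:16576302 went from 68 to 21. At chr10:29964231-29967788 on the plus strand the median ratio over 14 sites was 1.98, with heights of 28 and 252 at 1 site and of 7 and 7 at another. At chr21:4139873-4143673 on the plus strand, 13 sites had heights of at most 56 and 72 and a median ratio of 1.45.

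**Figure D5:**
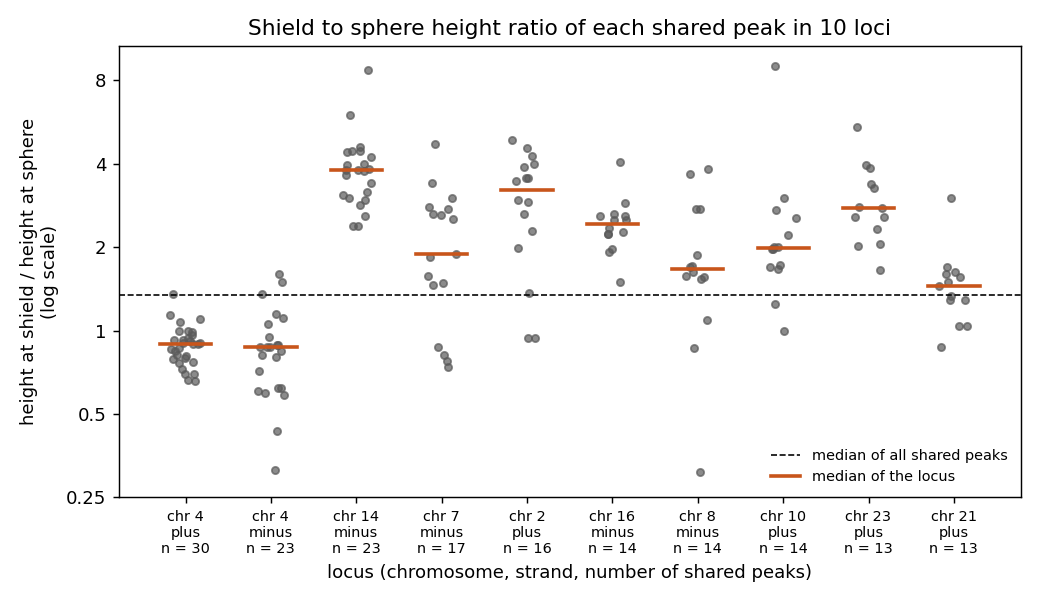
Ratio of shield to sphere height (y axis, log scale) for each shared site in the 10 loci with most shared sites (x axis, chromosome, strand and number of sites). Points are sites, thick bars the median of a locus and the dashed line the median of all shared sites, 1.35. The medians range from 0.872 on the minus strand of chromosome 4 to 3.80 on chromosome 14.

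Over all loci with 3 or more shared sites, ratios were more alike within a locus than between loci. In these 851 loci with 3702 sites, the log2 ratio had a standard deviation of 0.97 over all sites and of 0.63 within loci, and variance components put 57.8% of its variance between loci. With only sites of height 10 or more at both stages, 452 loci remained and the share was 63.7%. In the wider set of loci with 2 or more shared sites, neighbouring sites were on the same side of the median ratio in 2857 of 4030 pairs (70.9%). No rate for chance was computed for these pairs. In loci with 3 or more sites and no tie for the top, the tallest site at sphere was also the tallest at shield in 591 of 805 (73.4%). Of the 851 loci, 403 held only 3 sites, and no rate for chance was computed. Heights at both stages went together over all shared sites, so this share does not measure likeness of ratios within a locus. Among the 242 loci of at least 5 sites, the median ratio of a locus ran from 0.410 to 6.94. It was above 2 in 85 of them and under 1/2 in 3, while it was above 2 in 26.6% and under 1/2 in 6.22% of all 10031 loci. These groups are not alike, since 79.7% of all loci held 1 site, whose single ratio stood for the median. A median of at least 5 sites varies less than a single ratio. Sites of 1 locus share their libraries and possibly their RNA, and are not replicates. RNA levels at the loci were not analysed here.

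The most extreme ratios between stages lay far from the median on both sides. Among the 5540 sites with a height of 20 or more in at least 1 stage, the highest ratio was at chr3:23511615 on the minus strand, with heights of 3 and 103, a ratio of 34.3 with an interval from 11.4 to 169. It was followed by chr8:52948121 (6 and 171) and chr8:9447495 (4 and 84), both on the minus strand, then by chr23:10315075 on the minus strand (6 and 125) and chr17:31780156 on the plus strand (4 and 76). The lower bounds of these 5 intervals were above 7. The intervals cover counting error only and make no allowance for picking the highest ratios, and the sphere heights were only 3 to 6. At the other end, chr10:34964507 on the minus strand went from 177 to 9, a ratio of 0.0508 (0.0229 to 0.0987). The other low ratios were at chr19:28594821 on the minus strand (77 and 4), chr9:36163061 on the plus strand (102 and 8), chr25:16637857 on the minus strand (51 and 4) and chr6:42216169 on the minus strand (36 and 3). Of these 10 sites, 9 were the only shared site of their locus and the site on chromosome 23 had 1 companion, where 56.9% of all shared sites were alone in their locus. Peaks that were not shared can lie nearby. They were picked for their ratios, so the values describe them and test nothing.

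Shared sites were spread over all chromosomes and both strands. Of the sphere peaks of a chromosome, between 9.76% on chromosome 9 and 13.7% on chromosome 19 were shared, and of the shield peaks between 3.29% on chromosome 9 and 5.72% on chromosome 14. The median ratio per chromosome lay between 1.23 on chromosome 4 and 1.53 on chromosome 19. On the plus strand 11.6% of the sphere peaks were shared and on the minus strand 12.0%. The nearest sphere peak on the same strand, shared or not, was a median of 174 nt from a shared site and 279 nt from a site found only at sphere, with heights not matched.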

How the data were processed

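Flag-Elavl1a iCLIP peaks of sphere and shield embryos were used, with 1 list per stage. The authors trimmed adapters with cutadapt, collapsed duplicate reads, mapped with BWA 0.7.17 (per the labels), merged the 2 replicates of a stage and called peaks with the CITS mode of CTK, at a p of 0.05 and a gap of 25 nt. The deposited height of a peak is an unscaled signal in whole numbers, and the name field gives the caller's read cluster, expected height and p. Each list was checked to be identical between replicates. The lists do not give the read depth per library and the read totals of the study were not used here, so low heights limit precision, and intervals cover counting error only.

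Overlaps were computed in Python 3.11.15 with pandas 2.3.3, numpy 2.4.6 and scipy 1.17.1, tested on simulated data and checked with bedtools 2.31.1. Peaks described singly were the 10 tallest by the lower of both heights, 1 per locus, the 10 loci with most shared peaks, and the 5 highest and 5 lowest ratios with a height of at least 20 in either stage. The sites, rules and lists were chosen with earlier results of these data known. Coordinates are counted from 1. The paper's methods describe mapping of the iCLIP reads to the transcriptome, but the lists hold chromosome positions, which were taken as genomic. No genome of the build of the lists was used here, so the planned comparisons of sequence, genes, RNA-seq counts and icSHAPE reactivity were not run.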

Additional observations from a re-analysis of the deposited data

How the results depend on the processing

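The number of shared sites depended on the distance allowed and on the height required. Allowing 5 nt between peaks gave 26114 sphere peaks (21.9% of the list) and allowing 20 nt gave 41059 (34.5%). Requiring a height of at least 10 in both lists left 5739 (38.8% of such sphere peaks) and at least 20 left 2744 (54.1%). Peaks of 1 nt at the identical position numbered 13431 and overlaps on either strand 14086, and joining shared sites within 25 nt changed nothing, since no list holds peaks closer than 26 nt. With a height of at least 10, the median heights of shared sites were 21 at sphere and 31 at shield, and those of the stage-only peaks 13 and 14, while the median ratio of shared sites stayed at 1.35. Leaving out the locus with the tallest peaks, an alternative chosen after seeing the data, kept all 4 median heights and gave the same ratio. Also chosen after seeing the data, gaps of 500 or 5000 nt in place of 1000 gave 11063 or 8149 loci. No paired analysis was possible because the replicates of a stage were merged into 1 list, for which reason no replicate could be left out either. The lists hold no peak with a height under 2, and a site missing from 1 list was not shown to be unbound at that stage.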
